A study of Mus musculus with 6 samples.

Results

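Prostaglandin and leukotriene genes were examined in monocytes sorted from mouse melanomas that did or did not overexpress the cytokine BAFF. The 10 genes are those for the cyclooxygenases Ptgs1 and Ptgs2, the prostaglandin E synthase Ptges, the PGE2 receptors Ptger2 and Ptger4, the phospholipase Pla2g7, and the leukotriene genes Alox5, Alox5ap, Ltc4s and Lta4h. They were taken by name from the 18341 genes of the deposited table, and all 10 were found. C57BL/6 mice had received B16.F10 melanoma cells under the skin, and RNA of tumour monocytes was sequenced 13 days later. In 3 libraries, called BAFF tumours 1 to 3, the injected cells overexpressed BAFF, and in the other 3, called control tumours 1 to 3, they were control cells. The labels name no further treatment, and they state neither the age of the mice, the promoter that drove BAFF, the sorting markers, nor whether each library came from its own mouse. In the source label only the melanoma line is named, while the study's design text speaks of sorted monocytes. The p-values therefore refer to the spread between these libraries, which may be technical.

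Both prostaglandins and leukotrienes are made from arachidonic acid, which phospholipase A2 releases from membranes. Cyclooxygenases turn it into PGH2, from which Ptges makes PGE2, a lipid that tumour myeloid cells are known to release and that can restrain immune cells. PGE2 acts on the receptors EP2 (Ptger2) and EP4 (Ptger4), which raise cyclic AMP. In the other branch, 5-lipoxygenase (Alox5) with its membrane partner FLAP (Alox5ap) makes LTA4, which Lta4h turns into the neutrophil attractant LTB4 and Ltc4s into the cysteinyl leukotriene LTC4. Pla2g7, the platelet-activating factor acetylhydrolase, makes none of these lipids: it breaks down platelet-activating factor and oxidised phospholipids.

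The start regions of the cyclooxygenase genes are shown because Ptgs1 and Ptgs2 code for enzymes of the same reaction, and their values stood in opposite order between the groups, Ptgs1 lower and Ptgs2 with the higher mean in BAFF tumours. They come from RefSeq on GRCm38.p6, whose promoter windows reach from 250 bases before to 50 bases after an annotated start and covered 9 of the 10 genes. Capitals mark 5 motifs searched on both strands: TGACGT (the cyclic AMP response element core), CACGTG (the E-box), TTGCGCAA (a C/EBP palindrome), TATAAA (the TATA box) and GAGGAAGT (a PU.1 type of ETS motif). The upstream 250 bases are chr1:150099781-150100030 (plus strand) for Ptgs2 and chr2:36230176-36230425 (plus strand) for Ptgs1, and the short Ptgs2 stretch is chr1:150100035-150100062.
Ptgs2 upstream: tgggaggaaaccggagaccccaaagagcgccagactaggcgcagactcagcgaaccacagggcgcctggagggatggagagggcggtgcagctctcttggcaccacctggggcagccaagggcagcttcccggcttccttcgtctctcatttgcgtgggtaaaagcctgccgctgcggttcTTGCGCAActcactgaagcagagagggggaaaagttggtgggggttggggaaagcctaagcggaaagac
Ptgs2 after the start: tcaccactACGTCACGTGgagtccgctt
Ptgs1 upstream: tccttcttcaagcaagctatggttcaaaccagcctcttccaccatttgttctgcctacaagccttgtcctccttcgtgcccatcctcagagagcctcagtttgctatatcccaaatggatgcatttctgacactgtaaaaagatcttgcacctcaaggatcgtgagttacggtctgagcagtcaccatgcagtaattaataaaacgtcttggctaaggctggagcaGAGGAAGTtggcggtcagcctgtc

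The Ptgs2 window held TTGCGCAA, which 0.183% of all 32851 promoter windows hold, from base -69 relative to the annotated start. It also held TGACGT (on the other strand, from base 13) and CACGTG (from base 17), which overlap and which occur in 7.51% and 7.15% of the windows. Among the 9 matched windows only that of Ptgs2 held any of these 3 motifs, and only that of Ptgs1 held GAGGAAGT (from base -24, in 3.2% of all windows). TATAAA, present in 13.6% of all windows, was in none of the 9. A match is a run of letters and not a measured binding site.

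The deposited values are CPM, reads scaled to a common library total. In the 6 libraries 1 CPM stood for 4.72 to 27.6 reads, estimated from the step between low values, and the listed genes held 39.8% to 66.1% of the CPM total, least in control tumour 3. The tests of the 10 genes are therefore given on the deposited scale and after division by median-of-ratios factors (RLE), of 1.07 to 1.14 in BAFF tumours and 1.27, 0.904 and 0.67 in control tumours 1 to 3. Fold changes are log2 differences, BAFF minus control, of log2(CPM + 1), which limma tested in the 12824 genes that averaged at least 1 CPM, with calls at a Benjamini-Hochberg adjusted p under 0.05. Over all of these the median fold change was 0.23 on the deposited scale and 0.009 after RLE, so deposited fold changes include a general upward shift. The SE on the deposited scale is pooled over genes of similar level and does not show a gene's own spread.

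Of the 9 genes tested, 1 fell on the deposited scale, where 5.31% of all tested genes were called (1.81% higher and 3.5% lower). That gene was Ptgs1, and limma called 0 higher, with 4 higher at an unadjusted p under 0.05, as were 9.54% of all tested genes. After RLE Ptgs1 fell and Pla2g7, Ptger2 and Ptger4 rose, where 17.1% of all tested genes were called (7.18% higher and 9.91% lower). The median fold change of the 9 genes was 0.62 on the deposited scale and 0.37 after RLE. Without control tumour 1, 6 of the 9 passed as higher on the deposited scale, as did 4615 of all 12824, with a general median of 0.435. Ltc4s lay below the level for testing and was lower in each BAFF tumour than in each control.

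**Figure D1:**
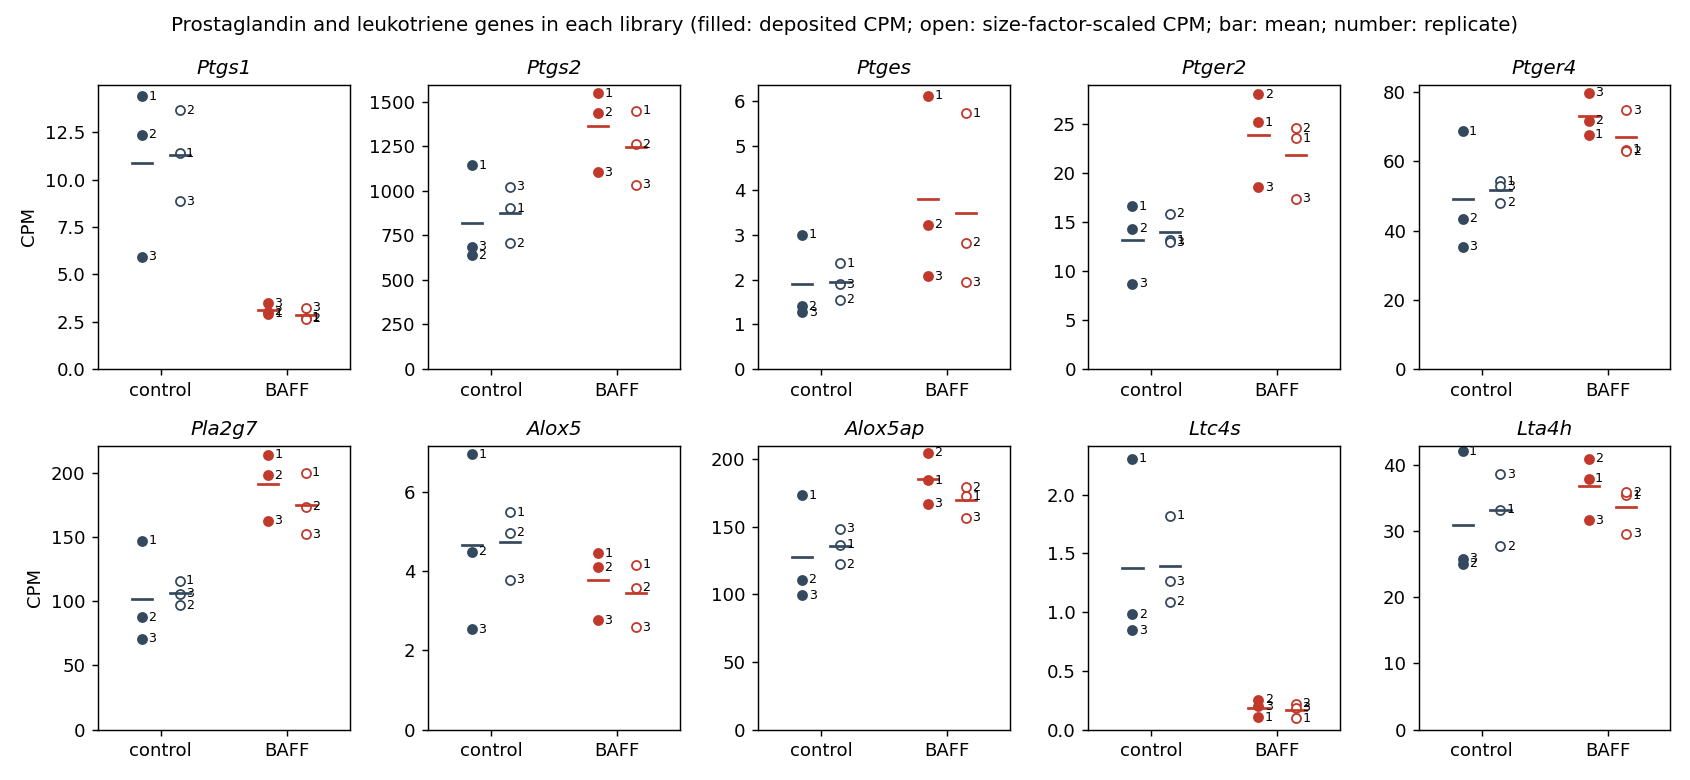
CPM (vertical axes, linear from 0, each gene on its own scale) of the 10 genes in the 3 control and 3 BAFF tumour libraries; filled points are deposited values, open points are RLE-scaled values, bars are means and numbers are replicates. Ptgs1 and Ltc4s sit lower in all 3 BAFF tumours than in any control, and Pla2g7 and Ptger2 sit higher, on both scales.

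Ptgs1 codes for cyclooxygenase 1, the form that most tissues express constantly and that platelets rely on. It stood at 2.90, 3.01 and 3.46 CPM in BAFF tumours 1 to 3 and at 14.4, 12.4 and 5.93 CPM in control tumours 1 to 3. The groups did not overlap, and the BAFF tumours lay within a narrow range while control tumour 3 was the lowest control. The means were 3.12 ± 0.29 CPM (SD, n = 3) and 10.9 ± 4.4 CPM, a log2 difference of -1.45 ± 0.31 (SE; adjusted p = 0.00034 by limma) and of -1.65 ± 0.18 after RLE (adjusted p = 0.000126). Leaving out any 1 library kept the call of Ptgs1 on each scale, with adjusted p up to 0.0309 on the deposited scale and 0.00166 after RLE. The values rest on 28, 83 and 35 reads in BAFF tumours and 394, 88 and 28 in control tumours.

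Ptgs2 codes for cyclooxygenase 2, the form induced by inflammatory signals. It ranked 26th to 61st among the 18341 genes by CPM, at 1548, 1438 and 1103 CPM in BAFF tumours 1 to 3 and 1142, 637 and 686 CPM in control tumours 1 to 3. On this scale only BAFF tumour 3 overlapped with a control, tumour 1. The means were 1363 ± 232 and 821 ± 279 CPM, and the difference did not pass (log2 0.77 ± 0.33, limma adjusted p = 0.181). After RLE the groups no longer overlapped, by a narrow margin of 1033 in BAFF tumour 3 against 1023 in control tumour 3, and the difference again missed (log2 0.51 ± 0.16, adjusted p = 0.0512). Leaving out single libraries after RLE gave adjusted p from 0.0259 to 0.185, with a call without BAFF tumour 3 or control tumour 3.

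Ptges, the inducible synthase that acts after Ptgs2, was scarce. It stood at 6.12, 3.23 and 2.07 CPM in BAFF tumours and 3.00, 1.40 and 1.27 CPM in control tumours, with overlap of BAFF tumour 3 and control tumour 1. BAFF tumour 1 was the highest library, and the fold change missed on both scales (log2 0.69 ± 0.30, limma adjusted p = 0.2; 0.53 ± 0.28 after RLE, adjusted p = 0.216). Control tumours 2 and 3 gave only 10 and 6 Ptges reads. Without control tumour 1 Ptges passed as higher on the deposited scale (adjusted p = 0.00287), as did 4615 of all 12824 tested genes. It passed in no other fit without 1 library on that scale (adjusted p 0.226 to 0.818). After RLE it passed in 0 such fits (adjusted p at least 0.0792).

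Of the PGE2 receptors, Ptger2 (EP2) stood at 25.2, 28.02 and 18.6 CPM in BAFF tumours and 16.6, 14.3 and 8.68 CPM in control tumours. The groups did not overlap on either scale. The log2 fold change was 0.84 ± 0.32 (limma adjusted p = 0.108), and after RLE it was 0.60 ± 0.15 and passed (adjusted p = 0.0172). That call disappeared on leaving out BAFF tumour 1, BAFF tumour 2, control tumour 1 or control tumour 3, with adjusted p at most 0.0871.

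Ptger4 (EP4) was the more abundant receptor in CPM, at 67.7, 71.7 and 79.9 CPM in BAFF tumours and 68.7, 43.4 and 35.3 CPM in control tumours. Control tumour 1 exceeded BAFF tumour 1 on the deposited scale, and after RLE the groups did not overlap. The log2 fold change was 0.62 ± 0.32 (limma adjusted p = 0.323) and after RLE 0.37 ± 0.11 (adjusted p = 0.0332), a call lost with upper-quartile factors (adjusted p = 0.0596) and in each of the 6 fits without 1 library (0.0512 to 0.119). The other prostanoid receptor tested, Ptgir for prostacyclin, stood at 10.6 ± 2.3 and 7.72 ± 2.1 CPM and did not pass (log2 0.41, adjusted p = 0.537; 0.19 after RLE, adjusted p = 0.498).

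Pla2g7 had the largest positive fold change of the tested 9 on both scales. It stood at 214, 198 and 163 CPM in BAFF tumours 1 to 3 and 147, 87.5 and 70.9 CPM in control tumours 1 to 3, with no overlap. The means were 192 ± 26 and 102 ± 40 CPM. The deposited fold change just missed (log2 0.96 ± 0.32, limma adjusted p = 0.051), and after RLE it passed (0.71 ± 0.12, adjusted p = 0.00158) in all 6 fits without 1 library (adjusted p at most 0.00966). Of the 9 tested genes 2 lay higher without overlap on the deposited scale and 5 after RLE, where 11.4% and 17.3% of all tested genes did. In the lower direction 1 of 9 did so on each scale, against 6.6% and 17.8%.

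Among leukotriene genes, Alox5ap (FLAP) was abundant and Alox5, its enzyme partner, was scarce. Alox5ap stood at 184, 205 and 167 CPM in BAFF tumours and 173, 111 and 99.5 CPM in control tumours, with control tumour 1 above BAFF tumour 3. It did not pass (log2 0.57 ± 0.32, limma adjusted p = 0.376; 0.32 ± 0.10 after RLE, adjusted p = 0.056), although after RLE the groups did not overlap. Alox5 stood at 4.46, 4.10 and 2.76 CPM in BAFF tumours and 6.95, 4.49 and 2.54 CPM in control tumours, and the groups overlapped. Its fold change was -0.19 ± 0.31 (adjusted p = 0.768) and -0.37 ± 0.20 after RLE (adjusted p = 0.226).

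The 2 enzymes that share LTA4 as substrate differed. Lta4h, on the LTB4 side, stood at 37.8, 40.9 and 31.6 CPM in BAFF tumours and 42, 25 and 25.8 CPM in control tumours, in overlapping ranges. Its fold change of 0.27 ± 0.32 (limma adjusted p = 0.678) was 0.03 ± 0.13 after RLE (adjusted p = 0.917), the nearest to 0 of the tested genes.

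Ltc4s, on the cysteinyl leukotriene side, stood at 0.104, 0.254 and 0.197 CPM in BAFF tumours and 2.30, 0.983 and 0.847 CPM in control tumours. These values are 1, 7 and 2 reads against 63, 7 and 4 reads. The groups did not overlap, as was so for 7.76% of all 18341 genes in this direction, and for 16.7% after RLE. BAFF tumours 1 and 3 lay under the floor of 3 reads. Pooled over a group and set against total reads, 10 reads in BAFF tumours against 74 in control tumours gave an 8.95-fold higher level in controls (95% interval 4.6 to 19.4, exact binomial, counting error only). Of the 74 reads 63 were from control tumour 1, and without it the ratio was 4.4 (95% interval 1.7 to 11.6). With no filter on low values limma called it lower on the deposited scale (log2 -0.96 ± 0.22, adjusted p = 0.00113, where 3.4% of 18341 genes were called lower). The same fit after RLE gave -1.02 ± 0.17 (adjusted p = 0.00192, where 7.89% were called lower), a setting chosen after seeing the data.

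**Figure D2:**
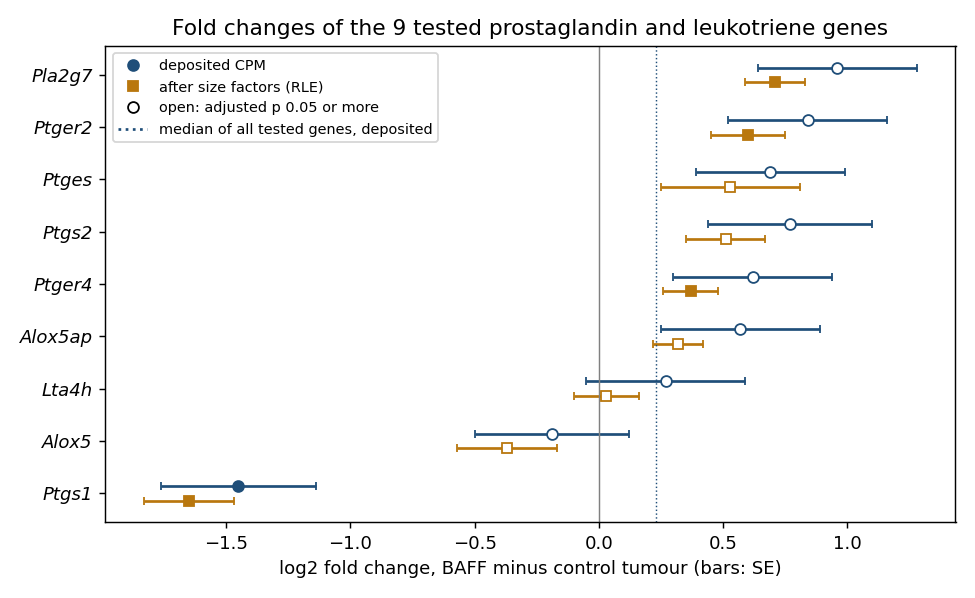
Log2 fold change, BAFF minus control tumour (horizontal axis), with its SE for the 9 tested genes on the deposited scale (circles) and after RLE (squares); filled symbols have an adjusted p under 0.05 and the dotted line is the deposited-scale median of all genes, 0.23. Ptgs1 is the only gene filled on both scales, and the fold changes after RLE lie below the deposited ones.

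Levels were compared between genes as CPM per kilobase of exon in GENCODE M21, on the deposited scale. Ptgs2 was highest, at 298 ± 51 (SD, n = 3) in BAFF and 179 ± 61 in control tumours, followed by Alox5ap at 131 ± 13 and 90 ± 28 and by Pla2g7 at 65.9 ± 9.04 and 35 ± 14. Ptger4 (11 ± 0.93 and 7.39 ± 2.6), Lta4h (6.03 ± 0.78 and 5.07 ± 1.6) and Ptger2 (4.61 ± 0.94 and 2.54 ± 0.79) came next. In BAFF tumours the ranges of Lta4h (5.18 to 6.7) and Ptger2 (3.57 to 5.4) met, and in control tumours those of Ptger4 and Lta4h did. At the low end in BAFF tumours Ptges (0.968), Alox5 (0.919) and Ptgs1 (0.804) lay within each other's spread, above Ltc4s (0.182). In control tumours the order was different: Ptgs1 stood at 2.81, within the spread of Ptger2, ahead of Ltc4s (1.36) and Alox5 (1.14), whose ranges met, and of Ptges (0.481).

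Libraries were made without strand information, so reads in exons shared with an opposite gene cannot be assigned. Alox5, Lta4h, Ptges and Ptgs2 share no exonic base with another gene in GENCODE M21. The other 6 share between 148 bases (Ptgs1) and 1097 bases (Ptger4), with 268 of 1014 bases for Ltc4s.

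Ratios between these genes within a library do not depend on its scale, apart from the pseudocount. The log2 ratio of Ptgs2 to Ptgs1 was 8.63, 8.49 and 7.95 in BAFF tumours and 6.21, 5.58 and 6.63 in control tumours, so the balance of the cyclooxygenase transcripts lay 2.22 further towards Ptgs2 in BAFF tumours. That of Alox5ap to Alox5 was 5.30 ± 0.20 and 4.54 ± 0.25 (SD, n = 3), again without overlap, although neither gene passed on either scale. The ratio of Ltc4s to Lta4h was -4.99 ± 0.20 and -3.76 ± 0.09, a difference of -1.23 that became -2.56 with a pseudocount of 0.1. The 2 receptors kept no such difference: Ptger4 to Ptger2 stood at 1.59 ± 0.40 and 1.81 ± 0.24, in overlapping ranges. Each difference in ratio restates the deposited fold changes of its genes. None was tested, and the share of other gene pairs without overlap was not counted.

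**Figure D3:**
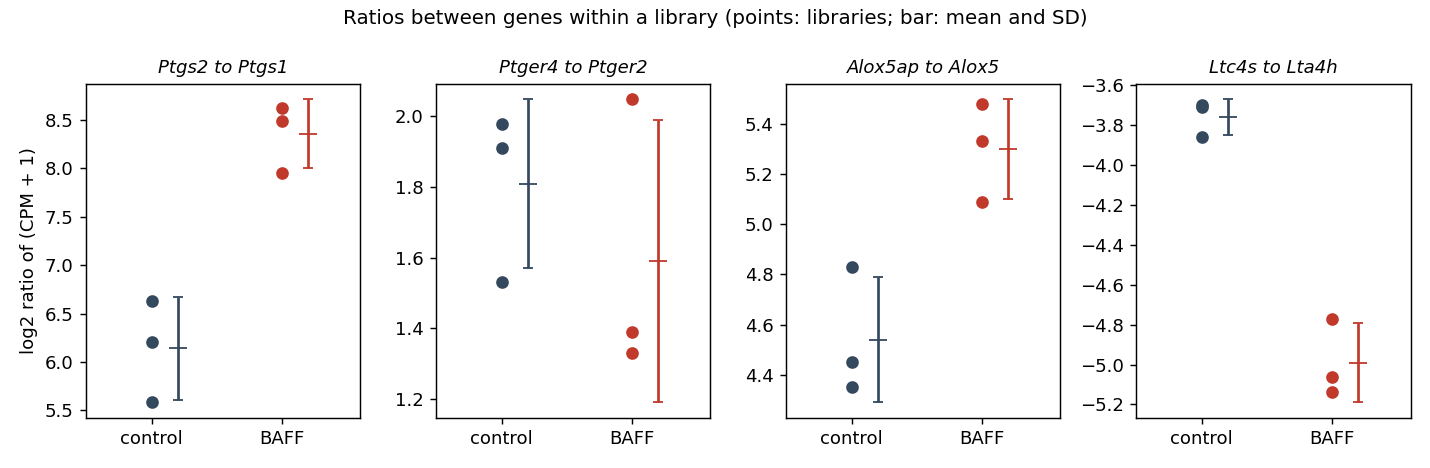
Log2 ratio of (CPM + 1) between pairs of genes within each library (vertical axes, each pair on its own scale not starting at 0); points are libraries and bars are means with SD over 3 libraries. Ptgs2 to Ptgs1 and Alox5ap to Alox5 are higher and Ltc4s to Lta4h is lower in every BAFF tumour than in every control, while Ptger4 to Ptger2 overlaps.

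Other genes of arachidonic acid metabolism and response were read from 11 lists with 144 genes, 103 of them tested. On the deposited scale 9 rose (8.74%) and 2 fell (1.94%), and after RLE 23 rose (22.3%) and 12 fell (11.7%), to be read beside the shares of all genes given above. The lists had medians between -0.64 and 0.7 on the deposited scale.

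The tested genes on the list of other prostanoid synthases were lower or did not pass, apart from Ptges3. Of 9 tested, Ptgds fell on the deposited scale, 8 did not pass, and after RLE 5 fell and 1 rose. Ptgds, a prostaglandin D synthase, stood at 5.29, 4.28 and 3.46 CPM in BAFF tumours and 19.6, 9.13 and 11.6 CPM in control tumours without overlap (log2 -1.39 ± 0.31, limma adjusted p = 0.000807). The call was lost without BAFF tumour 3 (adjusted p = 0.0808) and held in all 6 such fits after RLE. Hpgds, the haematopoietic prostaglandin D synthase, did not pass on the deposited scale (log2 -0.51, adjusted p = 0.44) and fell after RLE (-0.75 ± 0.18, adjusted p = 0.0142; 0.0553 without BAFF tumour 3). Tbxas1, thromboxane synthase and the most abundant of the list, stood at 82.5 ± 8.0 CPM in BAFF and 82.04 ± 23 CPM in control tumours and passed on neither scale (log2 0.04; -0.21 after RLE). Ptges3, the cytosolic PGE synthase and cochaperone p23, rose after RLE (0.32 ± 0.10, adjusted p = 0.0393), which was lost with upper-quartile factors (adjusted p = 0.0796) and in 5 of 6 fits without 1 library. Hpgds and Ptges3 were chosen after their values were seen.

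Hpgd, the dehydrogenase that inactivates PGE2, rose. It stood at 2.70, 4.13 and 3.55 CPM in BAFF tumours and 1.83, 0.562 and 0.423 CPM in control tumours without overlap (log2 1.26 ± 0.30, limma adjusted p = 0.00176; 1.15 ± 0.22 after RLE, adjusted p = 0.00448). On the deposited scale it did not pass when BAFF tumour 2, BAFF tumour 3 or control tumour 2 was left out (adjusted p at most 0.0841). The control mean was 0.938 CPM, so Hpgd reached the level for testing only through the BAFF tumours. Without a filter on low values limma also called it higher (adjusted p = 0.00164). Control tumour 3 lay under its floor of 3 reads, 0.635 CPM. The other 5 tested transport and breakdown genes did not pass on either scale, among them Slco3a1, the most abundant, at 19.1 ± 9.7 and 22.6 ± 7.3 CPM.

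Genes of arachidonic acid release and storage passed in few cases, 1 of 19 lower on the deposited scale and 2 higher and 2 lower after RLE. Mgll, the monoacylglycerol lipase, fell from 10.2 ± 5.6 to 3.82 ± 0.46 CPM without overlap (log2 -1.11 ± 0.31, limma adjusted p = 0.0119; -1.32 ± 0.18 after RLE). Anxa1, annexin A1, was the most abundant at 129 ± 28 and 93.7 ± 32 CPM and did not pass. Pla2g4a, the cytosolic phospholipase that supplies arachidonic acid, stood at 55.7 ± 7.3 and 41.2 ± 15 CPM and did not pass on either scale (0.49 ± 0.32, adjusted p = 0.464). It was chosen after its values were seen.

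Receptors for other lipid mediators included the LTB4 receptor Ltb4r1, at 39.2, 46.4 and 31.1 CPM in BAFF tumours and 18.3, 22.9 and 17.6 CPM in control tumours. The groups did not overlap, and the fold change just missed (log2 0.94 ± 0.32, limma adjusted p = 0.0539) and passed after RLE (0.70 ± 0.20, adjusted p = 0.0326; up to 0.138 without 1 library). Ltb4r1 was chosen after its values were seen. Cysltr1, the receptor for cysteinyl leukotrienes, was the most abundant leukotriene receptor at 64.6 ± 2.6 and 54.8 ± 21 CPM and did not pass (log2 0.31, adjusted p = 0.647; 0.06 after RLE, adjusted p = 0.748). Ptafr, the receptor for platelet-activating factor, stood at 368 ± 52 and 231.5 ± 93 CPM, missed on the deposited scale (0.73 ± 0.32, adjusted p = 0.203) and rose after RLE (0.48 ± 0.11, adjusted p = 0.0107; 0.0539 without BAFF tumour 2). Of the 7 tested genes of platelet-activating factor limma called 0 on the deposited scale (1 higher at an unadjusted p under 0.05), and after RLE Ptafr rose and Lpcat1 fell. Of 3 leukotriene receptors it called 0 (1 higher at an unadjusted p under 0.05), and after RLE Ltb4r1. Fpr2, which binds lipoxin A4 and formyl peptides, rose from 9.29 ± 3.8 to 19.96 ± 4.6 CPM (1.06 ± 0.32, adjusted p = 0.0202; 0.83 ± 0.16 after RLE), while Cmklr1, the most abundant of the 5 lipoxin and resolvin receptors, and the other 3 did not pass (Cmklr1 0.39, adjusted p = 0.564; 0.14 after RLE, adjusted p = 0.446).

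Of the lipoxygenase and epoxide genes, Alox15, which oxidises arachidonic acid at other carbons than Alox5, rose from 1.94 ± 1.04 to 4.67 ± 1.1 CPM (log2 0.99 ± 0.31, limma adjusted p = 0.0288; 0.80 ± 0.25 after RLE, adjusted p = 0.0449). On the deposited scale its call did not survive leaving out any single BAFF tumour or control tumour 3, and after RLE it survived only leaving out control tumour 2. It was also lost with upper-quartile factors (adjusted p = 0.0588), and after RLE without a filter (0.056). Ephx1, an epoxide hydrolase, stood at 4.62 ± 0.85 and 7.98 ± 3.04 CPM. It missed on the deposited scale (-0.64 ± 0.31, limma adjusted p = 0.284) and was lower after RLE (-0.85 ± 0.18, adjusted p = 0.00675). Of the 3 tested genes of this list limma called 1 higher on the deposited scale, with 2 lower at an unadjusted p under 0.05. After RLE Alox15 rose, and Ephx1 and Cyp2j6 fell. The median of this list was the lowest of the lists, at -0.64, and -0.83 after RLE. Cotl1, a binding partner of 5-lipoxygenase and the most abundant of the other leukotriene genes, stood at 266 ± 6.9 and 297 ± 66 CPM, missed on the deposited scale (-0.14, adjusted p = 0.843) and was lower after RLE (-0.39 ± 0.11, adjusted p = 0.0247; lost in 5 of 6 fits without 1 library). Of 9 such leukotriene genes limma called 0 on the deposited scale (1 higher at an unadjusted p under 0.05), and after RLE Cotl1 fell and the LTC4 exporter Abcc1 rose. Lpcat1, Abcc1 and Cyp2j6 were named after their values were seen.

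Genes that cyclic AMP is known to induce, the signal of EP2 and EP4, had the highest median of the 11 lists, 0.7 on the deposited scale and 0.45 after RLE. Of 20 tested, 3 rose on the deposited scale and 17 did not pass, and after RLE 10 rose and 1 fell. Nr4a2, an orphan nuclear receptor, stood at 157, 156 and 168 CPM in BAFF tumours and 109, 68.1 and 37.3 CPM in control tumours (log2 1.28 ± 0.32, limma adjusted p = 0.00307; 1.03 ± 0.14 after RLE). Crem, the cyclic AMP response modulator, rose from 37.6 ± 15 to 76.6 ± 11 CPM (1.07 ± 0.32, adjusted p = 0.0203; 0.83 ± 0.12 after RLE). Thbs1, thrombospondin 1 and the most abundant of the list, rose from 3287 ± 598 to 7000 ± 1355 CPM (1.09 ± 0.33, adjusted p = 0.0236, and 0.184 without a filter on low values; 0.84 ± 0.22 after RLE, adjusted p = 0.0224). The groups did not overlap for these 3. Pde4b, a cyclic AMP phosphodiesterase, and Fosl2, an AP-1 subunit, both chosen after their values were seen, were among those that rose after RLE only, by 0.61 ± 0.10 (limma adjusted p = 0.00133) and 0.71 ± 0.11 (adjusted p = 0.0013). Ppargc1a was the gene lower after RLE (-1.14 ± 0.22, adjusted p = 0.00418), and was named after its values were seen. Many of these genes also respond to other signals and to cell dissociation, so the list is no measure of receptor activity.

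Inflammatory genes that are induced with Ptgs2 in activated macrophages had a median of 0.51, and 0.27 after RLE. Of 21 tested, Cxcl2, Hdc and Il1rn rose on the deposited scale and 18 did not pass, and after RLE 4 rose. Cxcl2, a neutrophil attractant, rose from 524 ± 190.5 to 1038 ± 209 CPM (log2 1.02 ± 0.33, limma adjusted p = 0.0361, and 0.0793 without a filter on low values; 0.77 ± 0.15 after RLE, adjusted p = 0.00401). Hdc, histidine decarboxylase, rose from 12.5 ± 6.2 to 27.2 ± 6.04 CPM (1.13 ± 0.32, adjusted p = 0.0118; 0.89 ± 0.19 after RLE). Il1b, the most abundant, stood at 1680 ± 399 and 1018 ± 422 CPM and missed with the same fold change as Ptgs2 (0.77, adjusted p = 0.18; 0.51 after RLE, adjusted p = 0.0656). On the deposited scale the calls of Mgll, Fpr2, Crem, Nr4a2, Thbs1, Cxcl2, Hdc and Il1rn did not survive leaving out any single BAFF tumour or control tumour 2, with adjusted p up to 0.463. After RLE each passed whichever library was left out, apart from Thbs1, which passed in 2 of 6 such fits.

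**Figure D4:**
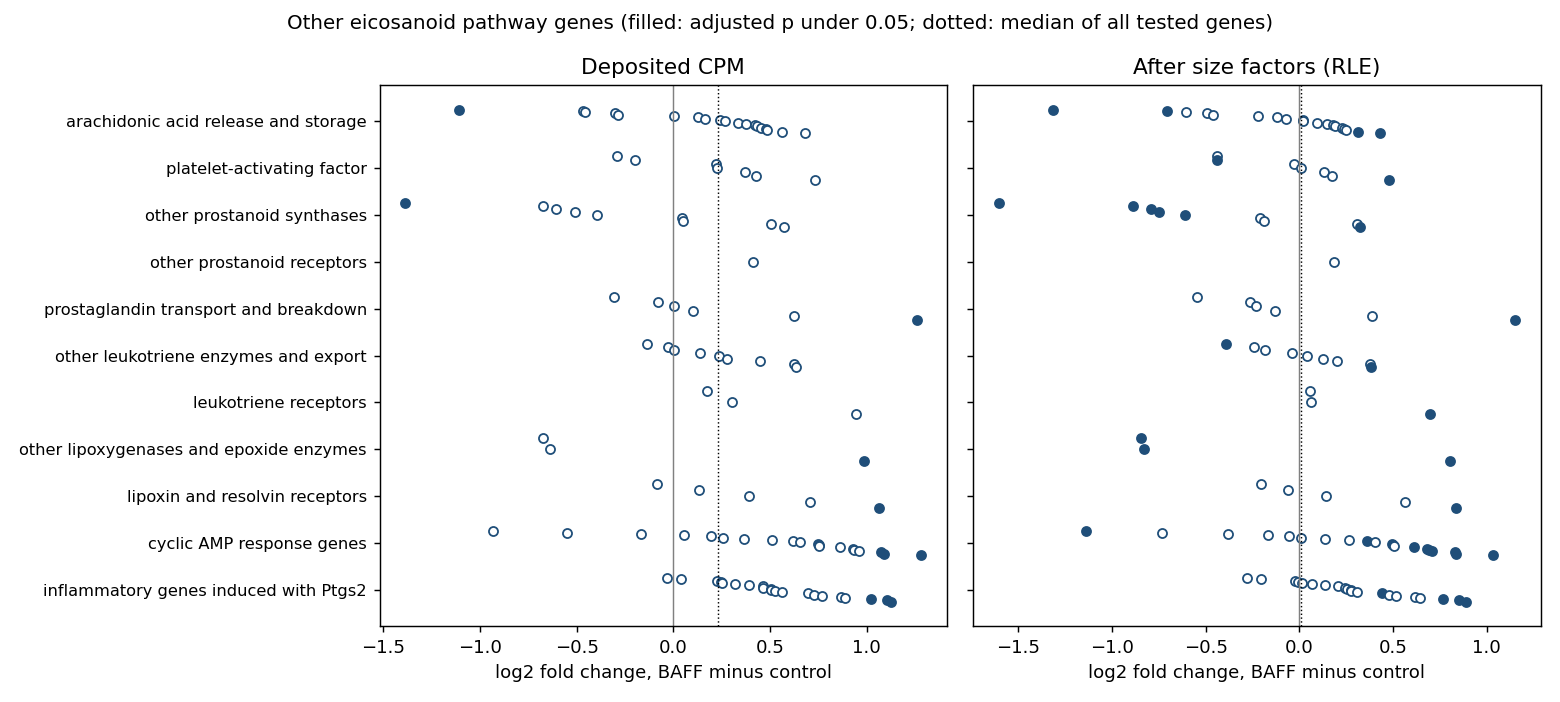
Log2 fold change, BAFF minus control tumour (horizontal axes), of the tested genes of 11 lists (rows) on the deposited scale (left) and after RLE (right); each point is a gene, filled at an adjusted p under 0.05, and the dotted line is the median of all tested genes. The cyclic AMP list lies mostly to the right of the median on both scales, and 5 of the other prostanoid synthases are filled on the left of it after RLE.

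Of the 9 genes Ptgs1 had the smallest p, and the genes nearest to its pattern over the 6 libraries were Top2a, Pclaf and Kif11 on both scales. The measure was the root mean square difference in log2(CPM + 1) after centring each gene, 0.094 for Top2a, 0.105 for Pclaf and 0.112 for Kif11 on the deposited scale. Top2a, a DNA topoisomerase of dividing cells, stood at 22.3, 23.8 and 25.5 CPM in BAFF tumours and 94, 68.9 and 36.2 CPM in control tumours.

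Markers of other cells differed between the same libraries. The cells carried monocyte and macrophage transcripts in all libraries, with Lyz2 at 5324 ± 622 CPM in BAFF and 3793 ± 1715 CPM in control tumours. The 10 markers of this type summed to 10000 to 11500 CPM and 5640 to 10500 CPM, which overlapped. After RLE the sums were 9360 to 10100 and 6620 to 8410, which did not. Limma called 0 of 10 on the deposited scale, with 3 higher at an unadjusted p under 0.05, and 3 higher after RLE. Their median fold change was 0.56, and 0.31 after RLE, beside 0.62 and 0.37 for the 9 genes. The summed level of 12 melanoma markers was 156 to 243 CPM in BAFF tumours and 495 to 861 CPM in control tumours. Of 11 tested, 9 fell on the deposited scale and 10 after RLE (limma). The sum of 14 tumour and resident macrophage markers was 3300 to 3460 CPM and 3140 to 7100 CPM, which overlapped. After RLE it was 3020 to 3240 and 4480 to 5600, which did not. Of these markers 2 fell on the deposited scale and 9 after RLE. Platelet and red cell markers, of interest for Ptgs1, summed to 67 to 138 CPM and 99.9 to 231 CPM, with limma calling 0 of 5 on either scale and 2 lower at an unadjusted p under 0.05. Neutrophil markers summed to 218 to 327 CPM and 104 to 228 CPM, with 5 of 9 higher on the deposited scale and 3 after RLE, and Ly6C-high monocyte markers to 4480 to 4930 CPM and 2450 to 4280 CPM, with 4 of 11 higher and 7 after RLE. Dendritic cell markers summed to 154 to 183 CPM and 76.4 to 120 CPM, with 3 of 10 higher on each scale, and B and plasma cell markers to 33 to 44.7 CPM and 35.3 to 88.9 CPM, with 2 of 4 lower on each scale. Of 13 mast cell and basophil markers, of interest for Ltc4s, 3 were in the table, with Gata2 at 0 in 2 libraries, and the other 10 are not analysed here. The 3 summed to 23.1 to 34.9 CPM in BAFF and 10.5 to 23.5 CPM in control tumours, and 1 of 2 tested, Hdc, rose on both scales. Hdc, at 27.2 and 12.5 CPM on average, made up most of that sum and is also on the list of genes induced with Ptgs2. The sum is therefore no measure of mast cells. Eosinophil markers summed to 23 to 31.4 CPM and 16.7 to 23.9 CPM, with 1 of 3 tested higher on the deposited scale and none of them after RLE. Fibroblast and pericyte markers summed to 38.8 to 62.9 CPM and 36 to 262 CPM. Of 8 tested limma called 0 on the deposited scale, with 3 lower at an unadjusted p under 0.05, and 1 lower after RLE. Endothelial markers summed to 35.4 to 45.7 CPM and 18.4 to 31.2 CPM. Of 4 tested it called 0 on the deposited scale, with 2 higher at an unadjusted p under 0.05, and 2 higher after RLE. Ly6C-low monocyte markers summed to 1100 to 1180 CPM and 673 to 1130 CPM. Of 10 tested limma called 0 on the deposited scale, with 4 higher at an unadjusted p under 0.05, and after RLE 1 rose and 1 fell. T and NK cell markers summed to 19.8 to 29.3 CPM and 12.3 to 34.9 CPM. Of 8 tested it called 0 on either scale, with 1 higher at an unadjusted p under 0.05 on the deposited scale. The part of these cells in the differences above was not tested. In sorted bulk samples, fewer cells of a type and less RNA per cell cannot be told apart.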

How the data were processed

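Total RNA (500 ng per library) of sorted tumour monocytes was sequenced in 6 libraries with the unstranded TruSeq RNA v2 kit, per the labels' protocols. The authors deposited CPM for 18341 genes; the submitters' processing notes name Partek, STAR 2.4.1d and Bowtie2 2.2.5 without roles, and the build, annotation and counting rule were not given in the sources used here. Of the low values, 81.87% to 85.78% per library were whole multiples of 1 step (tolerance 0.02), too few for a count model. The deposited column with a misspelt control title was matched to control tumour 2. Read numbers printed are CPM times the reads per CPM.

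Limma-trend (limma 3.58.1, R 4.3.3) was run on log2(CPM + 1), filtered at a mean of 1 CPM, and checked on simulated data. The simulated counts had a fixed overdispersion, the same for all genes and not estimated from these libraries. With that setting limma recovered 12% of genes given a log2 change of 1 on the deposited scale and 42% after RLE. At a log2 change of 2 it recovered 89% and 98%. A gene that did not pass may therefore still differ between the groups. The prior degrees of freedom were infinite on the deposited scale. The genes and lists were chosen with earlier results of these data known. Named are the 10 genes and, of each pathway list, the called genes and the most abundant. Marker lists are given by their summed deposited CPM, for some also after RLE, and for monocyte markers Lyz2, the most abundant, is added.

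Alternatives were RLE and upper-quartile factors, a pseudocount of 0.1, a replicate block, filters at 0 and at 5 CPM, and the omission of single libraries. Sequences are from RefSeq (GRCm38.p6).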

Additional observations from a re-analysis of the deposited data

How the results depend on the processing

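Ptgs1 was called lower under every alternative run, on both scales. The number of the 10 genes called higher, 0 on the deposited scale, was 3 after RLE, 2 with upper-quartile factors, 1 without a filter on low values (Pla2g7), and 3 after RLE without the filter. Called lower were 1 gene, and 2 without the filter (Ptgs1 and Ltc4s), on both scales. Leaving out single libraries gave 0 to 6 higher, and 1 to 4 after RLE. Over all genes, 232 higher and 449 lower became 921 and 1271 after RLE, 686 and 1394 with upper-quartile factors, 142 and 174 at a mean of 5 CPM (fewer genes tested), and 882 and 1447 after RLE without a filter. Leaving out single libraries gave 34 to 4615 higher and 128 to 1172 lower over both scales. Of the pathway genes, 9 higher and 2 lower became 23 and 12 after RLE, 19 and 13 with upper-quartile factors, and 21 and 12 after RLE without a filter, with 0 to 59 higher and 0 to 11 lower on leaving out single libraries. No sign of pairing by replicate number was seen: same-numbered deviations correlated at -0.0628, 0.0567 and -0.0372. With 3 libraries a group this cannot exclude pairing. With a replicate block 170 genes were called higher and 438 lower, and after RLE with the replicate block 781 and 1159, with 3 of the 10 genes higher and 19 pathway genes higher and 10 lower. The block ended the deposited call of Crem (adjusted p = 0.052) and the RLE calls of Thbs1 (0.0598), Cotl1 (0.0542) and Ptges3 (0.0635). It ended no other call of a gene whose fold change is given above. Other pathway genes, Lpcat1, Abcc1 and Cyp2j6 among them, were not checked singly. The Ltc4s to Lta4h ratio differed by -2.56 with a pseudocount of 0.1, a choice that weighs more on so low a gene.

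Fold changes near 0 turned sign. Lta4h was -0.02 with upper-quartile factors and -0.10 to 0.51 on leaving out single libraries, Alox5 -0.51 to 0.10, Cotl1 -0.48 to 0.01, Cysltr1 -0.02 to 0.58, and Slco3a1 -0.91 to 0.09. Tbxas1 was -0.21 after RLE, with its block or without a filter, -0.26 with upper-quartile factors, and -0.30 to 0.23 on leaving out single libraries. The cause was not tested. Reads limit Ltc4s, with 1 to 63 a library, and with 3 libraries a group no single-gene permutation test was run.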
